A study of Mus musculus with 12 samples.

Results

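Class I MHC antigen presentation was followed through 5 genes of the panel, H2-K1, H2-D1, Tap1, Psmb8 and Psmb9, chosen by name as the classical class I heavy chains, a subunit of the peptide transporter TAP and a pair of immunoproteasome subunits. They were 5 of the 768 probes in the deposited table, of which 754 were endogenous genes, and all 5 passed the minimum count of the test. RNA was counted in lung CD11c+ cells with the NanoString nCounter Myeloid Innate Immunity Panel, an assay in which a barcoded probe pair binds each transcript and the barcodes are counted without amplification. The question put by the series title is which genes recombinant RELMa changes in these cells. RELMa, encoded by Retnla, is a secreted protein made in quantity by alternatively activated macrophages during worm infection.

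All 4 groups came from RELMa-/- mice that had received 500 third-stage (L3) larvae of the rodent nematode Nippostrongylus brasiliensis and were killed on day 10. The sorted lung cells were cultured overnight in medium with 10% serum and moved to 1% serum, for 1 h by the growth protocol and for 2 h by the design text. The run 1 PBS and run 2 PBS groups then received the vehicle, and the run 1 rRELMa and run 2 rRELMa groups received 500 ng/ml recombinant RELMa, in each case for 4 h. Each group held 3 samples, 12 in all. No sample was uninfected and no sample carried an intact Retnla gene. The labels do not give the strain, age or sex of the mice, what separates the runs, or whether numbered samples stand for separate animals, pools or wells. The p-values therefore reflect the sample-to-sample spread alone, part or all of which may be technical. Because lysates of mixed cells were counted, fewer cells of a type and less RNA per cell cannot be told apart.

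Class I molecules show peptides from inside the cell to CD8+ T cells. Proteasomes cut cytosolic proteins, TAP pumps the peptides into the endoplasmic reticulum, and the peptides are loaded there onto a heavy chain paired with beta-2-microglobulin. Psmb8 (LMP7) and Psmb9 (LMP2) replace the constitutive catalytic subunits when interferon turns the standard proteasome into the immunoproteasome, and interferon also raises Tap1 and the heavy chains. Macrophages and dendritic cells, the main CD11c+ cells of the lung, both express the pathway.

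The 5 genes lie on mouse chromosome 17 in the MHC, placed here by RefSeq annotation of build GRCm38.p6. H2-K1 spans 33996012 to 34000619 on the minus strand. Psmb9 (34182030 to 34187330, minus strand), Tap1 (34187556 to 34197225, plus strand) and Psmb8 (34198195 to 34201454, plus strand) form a cluster of 19.4 kb, with 969 bases between the Tap1 and Psmb8 gene models. H2-D1 lies apart from this cluster at 35263094 to 35267497 on the plus strand, 1260 kb from H2-K1. Windows before a transcript start of each heavy chain are shown because these related genes gave different results below, and the interval between Psmb9 and Tap1 because these divergent neighbours gave nearly the same result. The first pair are the 250 bases before a transcript start of the RefSeq promoter table (chr17:34000348-34000597, minus strand, and chr17:35262844-35263093, plus strand). The H2-D1 start is the edge of its gene model, so the H2-D1 window lies outside that model. The H2-K1 start used, at 34000347, lies 272 bases inside the outer edge of its gene model. The whole H2-K1 window of 250 bases therefore lies inside the H2-K1 gene model. The last is the whole interval of 225 bases between the gene models (chr17:34187331-34187555, plus strand). Capitals mark matches to an NF-kB-type element (GGGA, any 4 bases, then CC) and to a short interferon-response-type element (GAANNGAAA), each searched on both strands.
H2-K1: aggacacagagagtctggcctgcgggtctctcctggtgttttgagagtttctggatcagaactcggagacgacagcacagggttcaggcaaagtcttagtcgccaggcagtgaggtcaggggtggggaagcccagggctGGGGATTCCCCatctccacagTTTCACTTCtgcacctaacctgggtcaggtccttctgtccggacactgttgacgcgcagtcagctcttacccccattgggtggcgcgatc
H2-D1: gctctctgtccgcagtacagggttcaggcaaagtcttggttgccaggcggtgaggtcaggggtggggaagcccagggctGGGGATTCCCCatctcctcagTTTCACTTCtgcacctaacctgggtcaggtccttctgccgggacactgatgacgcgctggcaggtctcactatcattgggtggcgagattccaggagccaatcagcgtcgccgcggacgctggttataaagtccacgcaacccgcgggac
Psmb9 to Tap1: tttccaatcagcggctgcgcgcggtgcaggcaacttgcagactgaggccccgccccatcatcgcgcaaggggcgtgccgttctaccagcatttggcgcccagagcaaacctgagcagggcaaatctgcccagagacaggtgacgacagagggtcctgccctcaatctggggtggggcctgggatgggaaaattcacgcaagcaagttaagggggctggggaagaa

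The heavy-chain windows aligned over 177 columns, of which 161 (91.0%) were identical. Their longest identical run of 47 bases began 141 bases before this H2-K1 transcript start and 201 bases before the H2-D1 start. The NF-kB-type match fell inside this run in both windows and was read on both strands, as 2 matches that overlap each other. It lay 110 and 111 bases before the same H2-K1 transcript start and 170 and 171 bases before the H2-D1 start, and such a match occurred in 17.6% of the 32851 mouse promoter windows of the RefSeq table. The short interferon-response-type match lay 90 bases before that H2-K1 transcript start and 150 bases before the H2-D1 start. It occurred in 6.31% of the windows and was added to the search after the windows had been seen. A GAS-type element (TTCNNNGAA, in 7.02% of windows) was found in the Psmb8 window, 97 bases before the start, and in no other member's window. The longer interferon-response-type element (GAAA, any 2 bases, then GAAA), in 2.98% of windows, was in none of them, and no searched element was in the interval between Psmb9 and Tap1. A match describes the letters of these windows and is not a measured binding site.

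The total of endogenous counts ran from 179719 to 257415 per sample in run 1 and from 411169 to 765719 in run 2. Relative to the 6 positive-control probes, endogenous counts were 1.39 to 1.88 in run 1 and 6.76 to 9.32 in run 2. The background limit, the mean plus 2 SD of the 8 negative controls, was 19.7 to 31.1 counts in run 1 and 16.1 to 23.9 in run 2. Retnla, deleted in these mice, had 5 to 18 raw counts, below the limit in every sample. Itgax, which encodes CD11c, had 161 to 268 raw counts in run 1 and 707 to 1216 in run 2 and was above the limit in every sample. Levels below are raw counts scaled between samples by TMM factors (trimmed mean of M-values, an estimate of each sample's depth that leaves out the most changed genes), with SD over the 3 samples of a group. A probe's level depends on its own efficiency, so levels are not compared between genes.

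H2-K1 encodes the heavy chain of the K class I molecule. Its scaled counts were 10647, 10993 and 10859.9 in run 1 PBS and 10210.2, 10893 and 11437 in run 1 rRELMa. They were 5760.4, 5697 and 5836 in run 2 PBS and 5851, 5584 and 5892 in run 2 rRELMa. Every run 2 sample was below every run 1 sample, and the treatments overlapped within each run. The group means were 10833 ± 175 and 10847 ± 615 in run 1 and 5765 ± 69.4 and 5776 ± 167 in run 2 (SD, n = 3 each, PBS first).

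H2-D1, the heavy chain of the D molecule, stood at 6523, 7141 and 6874 in run 1 PBS and at 6223, 6853 and 6969.8 in run 1 rRELMa. In run 2 it stood at 7236, 7079 and 6972 with PBS and at 7543, 7543 and 7651 with rRELMa. The runs overlapped among PBS samples and were apart among rRELMa samples, and in run 2 the 3 rRELMa samples lay above the 3 PBS samples. Its means were 6846 ± 310 and 6682 ± 402 in run 1 and 7096 ± 133 and 7579 ± 62.3 in run 2 (SD, n = 3 each, PBS first). Heavy-chain genes are close in sequence, and RefSeq lists H2-K1 or H2-D1 among the synonyms of 11 genes. Probe sequences were not used here, so whether each probe reads its own transcript alone was not tested.

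Tap1, a subunit of the TAP transporter, had scaled counts of 612, 695 and 592 in run 1 PBS and of 729, 684 and 594 in run 1 rRELMa. It had 167, 185 and 144 in run 2 PBS and 218, 168 and 175 in run 2 rRELMa. Run 2 was below run 1 without overlap, and in each run a single rRELMa sample of the 3 exceeded all PBS samples of that run. The means were 633 ± 55 and 669 ± 69.1 in run 1 and 165 ± 20.6 and 187 ± 27.2 in run 2 (SD, n = 3 each, PBS first).

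Psmb8 gave the tightest groups relative to its level among the proteasome and transporter genes. Its scaled counts were 1839.9, 1771 and 1912 in run 1 PBS and 1802, 1802 and 1826 in run 1 rRELMa. They were 695, 693 and 661 in run 2 PBS and 682, 681 and 656 in run 2 rRELMa. The treatments overlapped in both runs, while every run 2 sample was far below every run 1 sample. The means were 1841 ± 70.3 and 1810 ± 14.1 in run 1 and 683 ± 19 and 673 ± 14.8 in run 2 (SD, n = 3 each, PBS first).

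Psmb9, the other immunoproteasome subunit, had the lowest counts of the 5 genes, 5.27 to 10.6 times the background limit of the same sample. Its scaled counts were 351, 289 and 354 in run 1 PBS and 345, 328 and 327 in run 1 rRELMa. They were 86.8, 89.9 and 99.2 in run 2 PBS and 91.7, 89.4 and 96.9 in run 2 rRELMa. The pattern was that of Psmb8, with overlapping treatments and runs apart. The means were 332 ± 36.6 and 333 ± 10.2 in run 1 and 92 ± 6.48 and 92.7 ± 3.81 in run 2 (SD, n = 3 each, PBS first).

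**Figure D1:**
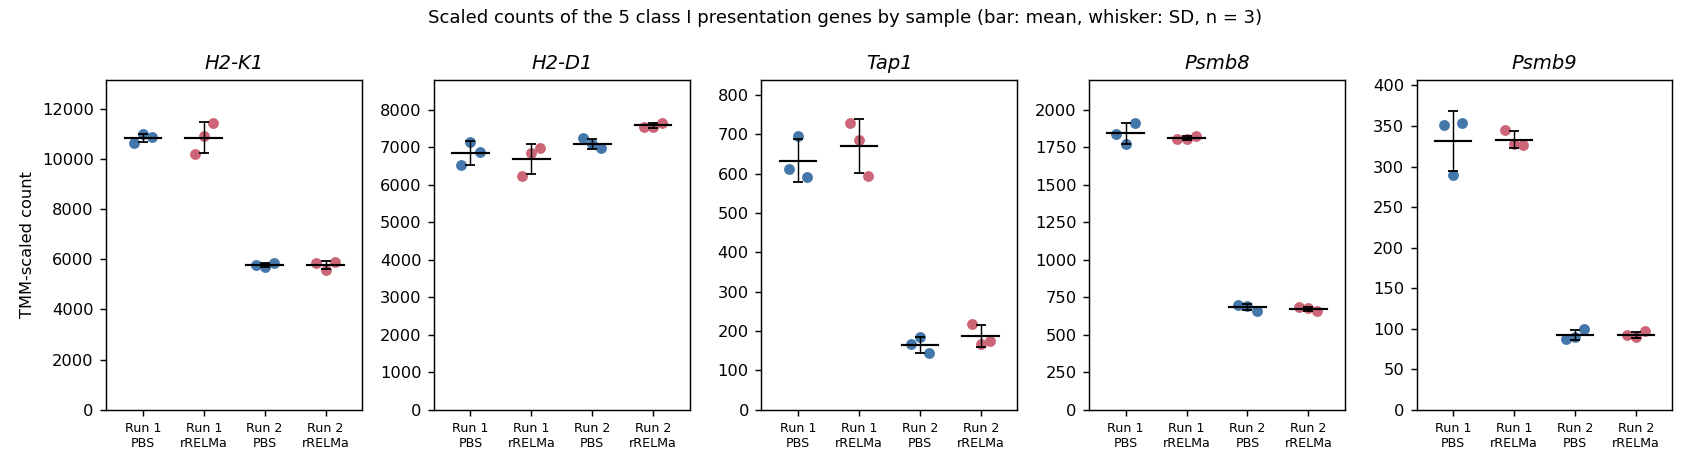
TMM-scaled counts (vertical axis, from 0, on a separate scale for each gene) of H2-K1, H2-D1, Tap1, Psmb8 and Psmb9 in the 4 groups of 3 samples, each point being a sample, the bar the mean and the whisker the SD. H2-K1, Tap1, Psmb8 and Psmb9 sit lower in all 6 run 2 samples than in any run 1 sample on this scaling, while H2-D1 spans 6223 to 7141 in run 1 and 6972 to 7651 in run 2.

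The first comparison asked whether rRELMa changed class I presentation genes, with the run as a block over 12 samples. None of the 5 genes passed the test. With edgeR's quasi-likelihood test and Benjamini-Hochberg adjustment over the 415 tested genes, 0 of the 5 were called at an adjusted p under 0.05, against 1 gene (0.241%) in the whole table, and 0 of the 5 had an unadjusted p under 0.05, against 32 genes (7.71%). DESeq2 and limma also called 0 of the 5. The median log2 difference was 0.01 over the 5 genes and 0.01 over all tested genes.

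The 95% intervals bound the mean difference between rRELMa and PBS samples after 4 h. The H2-K1 difference was 0.0022 on the log2 scale (SE 0.03, adjusted p = 0.993), with a 95% interval of -4.62% to 5.17%. H2-D1 differed by 0.03 (SE 0.04, adjusted p = 0.883; -3.08% to 7.84%). With the run as a block, any change of the mean above 10% in either direction was therefore outside the interval for both heavy chains. Within run 2 alone, the 95% interval of H2-D1 was wider, -0.348% to 14.5%.

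Tap1 gave the largest estimate of the 5, 0.12 on the log2 scale (SE 0.07, adjusted p = 0.693; -1.8% to 20.2%), and 5 of the 6 rRELMa samples were above the PBS mean of their run. Psmb8 differed by -0.02 (SE 0.04, adjusted p = 0.891; -6.71% to 3.63%), with 6 of 6 rRELMa samples below the PBS mean of their run. Psmb9 differed by 0.01 (SE 0.07, adjusted p = 0.993; -8.94% to 12%). The intervals of Tap1 and Psmb9, the genes with the fewest counts, were the widest.

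Treatment was also tested within each run for H2-D1 and Tap1, chosen after their values were seen because their samples had partly separated. H2-D1 differed by -0.04 in run 1 (SE 0.05, adjusted p = 0.897) and by 0.09 in run 2 (SE 0.05, unadjusted p = 0.0619, adjusted p = 0.597). The 3 rRELMa samples above the 3 PBS samples of run 2 stand against a background of 8.92% of tested genes with that arrangement in that run, and the 2 effects differed by 0.13 (SE 0.07, unadjusted p = 0.0739, adjusted p = 0.722). Tap1 differed by 0.08 in run 1 (SE 0.09, adjusted p = 0.881) and by 0.16 in run 2 (SE 0.11, adjusted p = 0.697), with a difference between runs of 0.08 (SE 0.14, adjusted p = 0.96). In edgeR, 0 of the 5 genes were called within run 1 (1 tested gene, 0.241%), within run 2 (0 genes, 0%) or for the difference between runs (0 genes, 0%). At an unadjusted p under 0.05, edgeR, DESeq2 and limma on TMM-scaled counts also gave 0 of the 5 genes in these 3 comparisons, where edgeR gave 25 (6.02%), 31 (7.47%) and 28 (6.75%) tested genes.

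The rest of the pathway on the panel comprised 11 genes, listed with earlier results of these data known, of which 9 were tested. The nonclassical genes H2-Q2 and H2-Q10, with mean raw counts of 6.5 and 5.42, were above the background limit in 0 of 12 samples. After rRELMa, 0 of the 9 were called, with a median log2 difference of -0.01. Tap2, the partner subunit of Tap1 in TAP, differed by 0.19 (adjusted p = 0.679), and Tapbp, which encodes the loading chaperone tapasin, by -0.06 (adjusted p = 0.833). The nonclassical gene H2-T23 differed by 0.04 and the lipid-presenting Cd1d1 by -0.10 (adjusted p = 0.722).

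The runs differed far more than the treatments, and the 5 genes did not move as a unit. Under TMM scaling, Tap1 and Psmb9 were lowest in run 2 relative to run 1, Psmb8 came next, H2-K1 was lower by less, and H2-D1 was slightly higher. The direction for H2-D1 depends on the scaling, being lower in run 2 under reference genes, library totals, quantiles or subtraction of negative controls, and the other 4 were not called lower when samples were scaled by positive controls. The same comparison was made in PBS samples, in rRELMa samples and over both, and the PBS comparison is free of the treatment.

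In PBS samples 4 of the 5 genes were called, all lower in run 2, where 65.8% of tested genes were called, 29.9% higher and 35.9% lower. In rRELMa samples all 5 were called, 4 lower and 1 higher, against 63.4% of tested genes called, 33.5% lower and 29.9% higher. Over both treatments all 5 were called, 4 lower and H2-D1 higher, against 74.9% of tested genes called, 40.7% lower and 34.2% higher. The 4 lower genes did not overlap between runs in either treatment, which was true in this direction of 35.9% of tested genes in PBS samples, 34.9% in rRELMa samples and 29.4% in both. H2-D1 did not overlap between runs in rRELMa samples, as did 33% of tested genes in that direction. By the shares above, a called run difference was common on this panel. The median log2 difference over both treatments was -1.43 for the 5 genes and -0.05 for all tested genes.

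Tap1 differed by -1.88 on the log2 scale over both treatments (SE 0.07, adjusted p = 4.68e-20), a 3.67-fold lower level in run 2. The value was -1.92 in PBS (SE 0.10, adjusted p = 3.79e-16) and -1.84 in rRELMa samples (SE 0.10, adjusted p = 5.61e-16). Psmb9 differed by -1.85 over both (SE 0.07, adjusted p = 1.88e-19), or 3.61-fold, with -1.86 in PBS (SE 0.11, adjusted p = 1.61e-15) and -1.84 with rRELMa (SE 0.11, adjusted p = 1.65e-15). These neighbours on the chromosome thus had nearly equal run differences.

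Psmb8 differed by -1.43 over both treatments (SE 0.04, adjusted p = 1.04e-23), or 2.69-fold. It gave -1.43 in PBS (SE 0.05, adjusted p = 1.32e-19) and -1.43 with rRELMa (SE 0.05, adjusted p = 1.16e-19). H2-K1 differed by -0.91 over both (SE 0.03, adjusted p = 3.47e-20), or 1.88-fold, with -0.91 in PBS (SE 0.05, adjusted p = 3.27e-16) and -0.91 with rRELMa (SE 0.05, adjusted p = 3.53e-16). The run difference of each gene was the same in both treatments to 2 decimals.

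H2-D1 was the exception. It differed by 0.05 in PBS (SE 0.05, adjusted p = 0.373), by 0.18 with rRELMa (SE 0.05, adjusted p = 0.00209) and by 0.12 over both (SE 0.04, adjusted p = 0.00399), with 6 of 6 run 2 samples above the run 1 mean of their treatment. Over both treatments the value became -0.21 with reference genes, -0.25 with library totals, -0.14 with quantile normalization and -0.11 after subtraction of negative controls, and with no minimum count it became 0.50. In PBS samples, where it was not called, it was called higher with no minimum count (0.42, edgeR adjusted p = 1.17e-08). The median of all tested genes also moved with the scaling, from -0.05 with TMM to -0.38, -0.42, 0.15 and 0.04 in that order. Relative to that median, H2-D1 lay at 0.17 with TMM, reference genes and library totals, at -0.29 with quantiles and at -0.16 after subtraction.

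Scaling by positive controls, which keeps the larger endogenous signal of run 2, put the median of all tested genes at 1.73. H2-K1 was then 0.88 and Psmb8 0.36 higher in run 2, both called, while Tap1 (-0.09) and Psmb9 (-0.06) were not called. Relative to the median of all tested genes, the values under TMM were -0.85 for H2-K1, -1.82 for Tap1, -1.37 for Psmb8 and -1.80 for Psmb9, and under positive controls they were -0.85, -1.81, -1.37 and -1.79. They were not the same under every setting: H2-K1 lay at -1.63 with quantiles and at -0.27 with no minimum count, the latter at percentile 42.1 of the genes tested there, and Psmb8 lay at -0.78 with no minimum count. These 4 genes were below the median of the tested genes under each of the 7 settings plotted for the run difference.

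**Figure D2:**
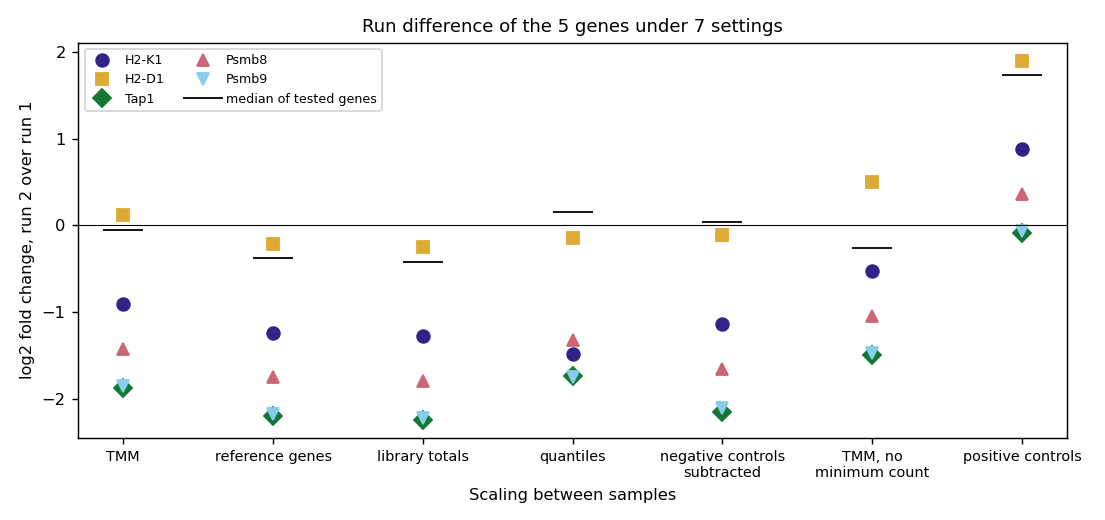
Log2 fold change of run 2 over run 1, averaged over treatments (vertical axis), for the 5 genes under 7 settings (horizontal axis), with a black dash at the median of the genes tested in that setting. H2-D1 changes sign between settings and lies between -0.29 and 0.76 from the dash, while the other 4 lie below the dash throughout. Tap1 and Psmb9 are below 0 in every setting, at -0.09 and -0.06 with positive controls. H2-K1 and Psmb8 are below 0 except with positive controls, where they are at 0.88 and 0.36.

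Ratios between genes within a sample do not depend on a scaling factor, and they were compared by an exact two-sided permutation test within treatments (400 arrangements, smallest possible p = 0.005), adjusted over the 10 pairs. The raw count of H2-D1 over that of H2-K1 was 0.613, 0.65 and 0.633 in run 1 PBS and 0.609, 0.629 and 0.609 in run 1 rRELMa. It was 1.26, 1.24 and 1.19 in run 2 PBS and 1.29, 1.35 and 1.3 in run 2 rRELMa. All 6 run 2 samples had a higher ratio than all 6 run 1 samples. The log2 ratio of H2-K1 over H2-D1 went from 0.68 ± 0.04 to -0.35 ± 0.06 (SD, n = 6), a difference of -1.03 (exact permutation p = 0.005, adjusted p = 0.00556).

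The count of Tap1 over Psmb9 was 1.74, 2.4 and 1.67 in run 1 PBS, 2.12, 2.09 and 1.82 in run 1 rRELMa, 1.92, 2.06 and 1.45 in run 2 PBS and 2.38, 1.88 and 1.8 in run 2 rRELMa. The runs overlapped almost fully. The log2 ratio was 0.97 ± 0.20 in run 1 and 0.92 ± 0.24 in run 2 (SD, n = 6), a difference of -0.05 (exact permutation p = 0.705). Tap1 over Psmb9 was the 1 pair of the 10 that did not pass.

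Psmb9 over Psmb8 was 0.191, 0.163 and 0.185 in run 1 PBS, 0.191, 0.182 and 0.179 in run 1 rRELMa, 0.125, 0.13 and 0.15 in run 2 PBS and 0.134, 0.131 and 0.148 in run 2 rRELMa. The counts of the immunoproteasome probes therefore did not keep their proportion, and the ratio in every run 2 sample was below that in every run 1 sample. Whether probe efficiency differed between the runs was not tested. The log2 ratio of Psmb8 over Psmb9 rose by 0.42 in run 2, and that of Tap1 over Psmb8 differed by -0.46 (exact permutation p = 0.005, adjusted p = 0.00556 for both). H2-K1 rose relative to Tap1 (0.98), Psmb8 (0.52) and Psmb9 (0.94), and H2-D1 relative to the same 3 genes by 2.01, 1.55 and 1.96, with exact permutation p = 0.005 for each. Between treatments, 0 of the 10 pairs passed, the smallest exact permutation p being 0.145 (adjusted p = 0.642) for Tap1 over Psmb8.

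**Figure D3:**
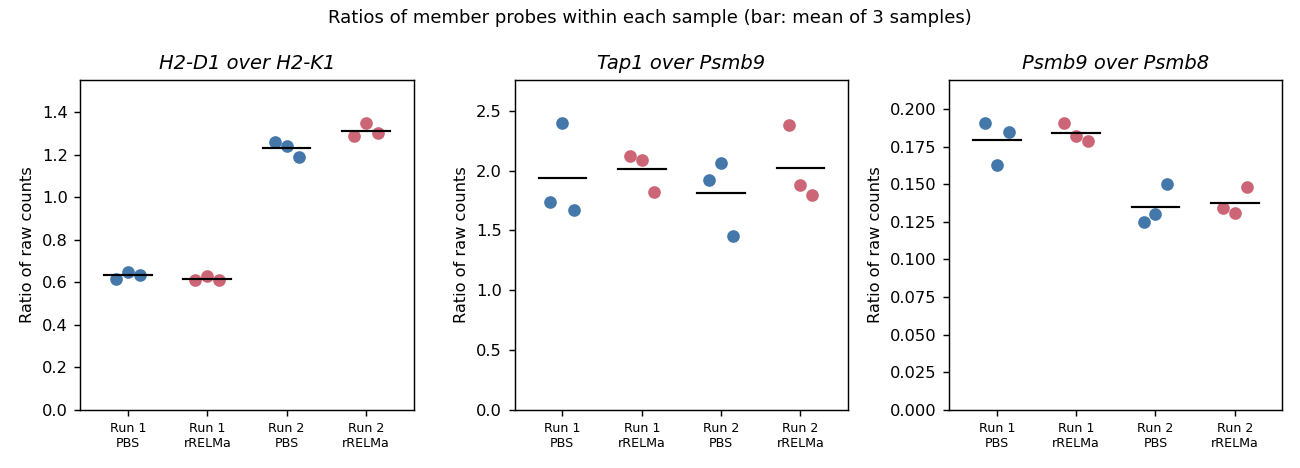
Ratio of raw counts of 2 member probes within each sample (vertical axes, from 0) for H2-D1 over H2-K1, Tap1 over Psmb9 and Psmb9 over Psmb8, by group, with each point a sample and the bar the mean of 3. H2-D1 over H2-K1 lies between 0.609 and 0.65 in run 1 and between 1.19 and 1.35 in run 2, while Tap1 over Psmb9 overlaps between runs.

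Of the 9 tested companions, 7 were called lower in run 2 and 2 higher under TMM, with a median of -0.99. Among all tested genes 40.7% were called lower and 34.2% higher. The transporter and loading genes were lower, with Tap2 at -1.28 (SE 0.11, adjusted p = 1.31e-11) and Tapbp at -0.99 (SE 0.05, adjusted p = 2.14e-17). Psme2, a subunit of the PA28 proteasome activator, was lower as well (-1.21, SE 0.04, adjusted p = 2.12e-22). Calr, the endoplasmic reticulum chaperone calreticulin, was higher (0.78, SE 0.04, adjusted p = 1.56e-16).

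Nonclassical class I genes were lower by differing amounts. H2-M3, which presents formylated peptides, differed by -1.10 (SE 0.09, adjusted p = 2.98e-12), H2-T23 by -0.52 (SE 0.06, adjusted p = 1.04e-09) and H2-Q1 by -0.42 (SE 0.04, adjusted p = 1.2e-09). Cd1d1 had the largest difference of the list, -2.24 (SE 0.07, adjusted p = 1.12e-22). Cybb, the catalytic subunit of the phagocyte NADPH oxidase, was higher by 0.32 (SE 0.05, adjusted p = 1.02e-06), but its difference was -0.01 with reference genes and -0.04 with library totals, and it was not called after subtraction of negative controls (0.10). H2-Q1 was not called with no minimum count (-0.04). Under positive-control scaling the differences of H2-M3, H2-T23, H2-Q1, Tap2, Tapbp and Psme2 were all above 0.

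**Figure D4:**
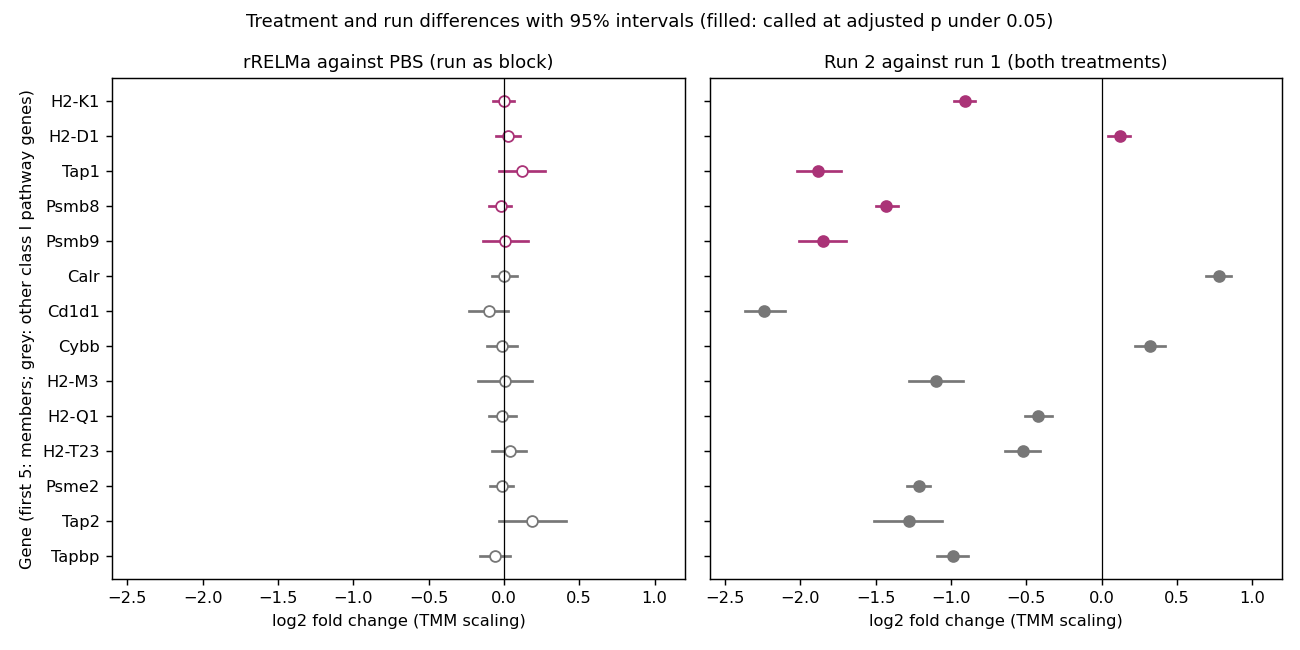
Log2 fold change (horizontal axes, TMM scaling) with its 95% interval for the 5 members (purple) and the 9 tested companions (grey), for rRELMa against PBS on the left and run 2 against run 1 on the right, filled where called. On the left all 14 intervals cross 0, and on the right 11 genes lie below 0 and H2-D1, Calr and Cybb lie above it, with H2-D1 and Cybb on the other side under reference-gene or library-total scaling.

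Interferon signalling is the best-known inducer of these genes, and 17 genes of its ligands, receptors and signal transducers were on the panel, 14 of them tested. The ligand genes Ifng (1 to 7 raw counts), Ifnb1 (7 to 22) and Ifna1 (3 to 16) were above the background limit in 0 of 12 samples. In run 2, 8 of the 14 were called lower, 3 higher and 3 not. Over all tested genes 40.7% were called lower and 34.2% higher, 74.9% in either direction. The transcription factors Irf7 (-3.93, SE 0.06, adjusted p = 8.48e-29) and Irf1 (-1.13, SE 0.10, adjusted p = 1.03e-11) were among those lower. Irf5 (-0.43), Irf2 (-0.42), the receptor chain Ifnar2 (-0.38) and the feedback inhibitor Socs1 (-0.80) were also called lower, and Socs3, another inhibitor of cytokine signalling, was called higher (0.64). Socs3 had 11 to 23 raw counts in run 1 and 50 to 90 in run 2. It was above the limit in 6 of 12 samples, so its fold was taken against background. Socs1 was above the limit in 10 of 12 samples. Under positive-control scaling Irf1, Irf2, Irf5, Ifnar2 and Socs1 lay above 0. With no minimum count Irf5 (-0.05), Irf2 (-0.04) and Ifnar2 (0.00186) were not called. Irf2 was also not called with quantiles (-0.24), Socs1 after subtraction of negative controls (-0.60), or Socs3 with reference genes (0.33) or library totals (0.28). After rRELMa 0 of the 14 were called.

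A separate list of interferon response genes, 7 of 8 tested, had all 7 called lower in run 2 with a median of -3.08. The 5 genes had a median of -1.43. Isg15 and Cd274 were above the background limit in all 12 samples, Usp18 in 9, Mx1 in 7, and Mx2, Cxcl9 and Cxcl10 in 6. Where a gene was not above the limit its fold was taken against background, so these medians are not comparable in size. The minimum count was a mean over all 12 samples, so a gene could pass it through the samples of 1 run alone. The count of 7 called lower therefore depends in part on that filter and is not support for a direction. The class II MHC genes, 7 of 9 tested, had 6 lower and 1 higher with a median of -0.92. Both lists are given as descriptions beside the median of -0.05 for all tested genes, of which 40.7% were called lower and 34.2% higher.

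Cell type markers differed between the runs too, and their part in the class I results was not tested. The marker counts here and in the next paragraph stand against 34.2% of all tested genes called higher and 40.7% called lower. Of 9 tested alveolar macrophage markers 7 were called higher and 1 lower in run 2, with a median log2 difference of 1.19. Their summed level was 73316 to 82325 in run 1 PBS and 73769.7 to 81014 in run 1 rRELMa. It was 109636 to 112325 in run 2 PBS and 114319 to 120036 in run 2 rRELMa. That sum was mostly Chil3, with a mean raw count of 97270 against 3856 for Cd36, and Chil3 differed by 0.51. Itgax itself was 2.28-fold higher in run 2 (log2 1.19, SE 0.05, adjusted p = 3.19e-18). Of 7 tested interstitial macrophage or monocyte markers 6 were lower and 1 higher, with summed levels of 1938 to 2102 and 1927 to 2007 in run 1 and of 1314 to 1424 and 1253 to 1428 in run 2 (PBS first), and Cx3cr1 was at or below the limit in every sample.

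Of 7 tested dendritic cell markers 4 were higher and 1 lower in run 2, with sums of 535 to 709 in run 1 and 716 to 1008 in run 2, and Xcr1 at or below the limit throughout. The 3 epithelial, endothelial or stromal markers summed to 2289 to 2734 in run 1 and to 977 to 1104 in run 2. Of the 2 tested, Cav1, with a mean raw count of 1417, was lower in run 2 (-1.29) and Cdh1, with 27.3, was higher (0.60, SE 0.19, edgeR adjusted p = 0.00517). Cdh1 had 6 to 62 raw counts and was above the limit in 0 run 1 samples and in all 6 run 2 samples. Its fold was therefore taken against background. All 4 eosinophil markers, 7 of 9 neutrophil markers including Ly6g, and Nkg7 of NK cells and Ms4a1 of B cells were at or below the limit in every sample. The other 2 neutrophil markers, S100a8 and Mmp8, were above it in every sample, and 1 was called higher and 1 lower in run 2. The neutrophil list summed to 639 to 726 in run 1 and to 662 to 869.7 in run 2. The T cell marker Cd247 had 12 to 30 raw counts and was above the limit in 3 of 12 samples, all of run 1. As a check of the sort, 8 of the 9 alveolar macrophage markers and 3 of the 8 dendritic cell markers on the panel were above the limit in every sample.

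The genes most like each member were taken as the 3 with the smallest root mean square difference of centred log2 profiles over the 12 samples, among 410 other tested genes. Such likeness describes these samples and is set largely by the run. Those of Tap1 and of Psmb9 included Cd14 (0.15 and 0.135) and C3 (0.199 and 0.161), where the median over all genes was 0.976 and 0.941. Psmb8 was nearest to Cd180 (0.0867), C3ar1 (0.0929) and Cav1 (0.113), with a median of 0.746.

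H2-K1 was nearest to S100a11 (0.0704), the class II gene H2-Aa (0.0759) and Tapbp (0.0839), with a median of 0.53. H2-D1 was nearest to the alveolar macrophage scavenger receptor gene Marco (0.0657), Lpl (0.0706), which encodes lipoprotein lipase, and Hist1h1c (0.0729), with a median of 0.306. Among the members, Tap1 and Psmb9 were closest at 0.201, H2-K1 and H2-D1 were 0.516 apart, and H2-D1 and Tap1 were the farthest apart at 1.02. Tap1 (0.15 and 0.199) and Psmb9 (0.135 and 0.161) were each nearer to Cd14 and C3 than to each other, so their likeness was not particular to the pair. The mean profile of the 5 genes was nearest to Psme2 (0.0444), the class II gene H2-Ab1 (0.0674), Adam8 (0.085), Cd274 (0.0904) and Cav1 (0.0943), with a median of 0.637. Cd14 is also on the interstitial macrophage or monocyte list, Marco on the alveolar macrophage list and Cav1 on the epithelial, endothelial or stromal list.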

How the data were processed

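The deposited table held whole-number counts per probe, read from the values as raw: totals differed between samples, control probes were present, and the lowest value was 1. The counting software is not given here, nor whether a floor was set. Groups came from the sample titles. The members, companions, marker lists and tests were chosen with earlier results of these data known.

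The counts as deposited were tested with edgeR 4.0.16 (glmQLFit, glmQLFTest, TMM factors; R 4.3.3), two-sided, over 415 genes with a mean count of at least 20, leaving out control probes, 20 reference genes and 319 genes below the minimum. P-values were adjusted over all tested genes. One model had treatment plus run, another 1 coefficient per group. Common biological variation (coefficient of variation) was 5%, with 18.5 prior degrees of freedom. The fits were tested on simulated counts. In chi-square tests all replicate pairs differed beyond counting noise (ratio to degrees of freedom 1.55 to 3.25; highest p 4.27e-12), so none was merged as a repeat deposit; this does not show that the samples are independent. Ratios used raw counts (scipy 1.17.1). Alternatives were DESeq2 1.42.0, limma 3.58.1 on log2(scaled count + 1), other scalings, no minimum count, and each sample left out. Companions were named if called or among the 4 smallest p, interferon genes if ligands or among the 8 smallest p between runs, and like genes by distance. One gene is not reported here. Intervals reflect the spread between samples. Promoter windows came from RefSeq for GRCm38.p6. The first of 2 listed H2-K1 windows was used.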

Additional observations from a re-analysis of the deposited data

How the results depend on the processing

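Same-numbered samples of the 2 treatments had deviations correlated at -0.078 to -0.027 in 6 pairs, against -0.132 to 0.192 for differing numbers. The positive values fell on the same combinations in run 1 and run 2. These were PBS 1 with rRELMa 3 (0.138 and 0.158), PBS 2 with rRELMa 1 (0.119 and 0.192) and PBS 3 with rRELMa 2 (0.132 and 0.116). Whether samples are paired under differing numbers was not tested. No member's call changed with the replicate block, under which treatment within run 2 gave 1 gene. Psmb9 and Tap1 had the fewest counts of the members and the widest treatment intervals; how much of that spread is counting error was not tested. Nor was the cause of each change below.

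For rRELMa against PBS, no minimum count called 2 genes, and a model without the run called 0 (4 at an unadjusted p under 0.05). Within run 1, 0 genes were called under reference-gene scaling, library totals, DESeq2, limma or no minimum count, 5 under quantiles, and 0 to 1 with a sample left out (0 without run 1 rRELMa 1 or 2, run 1 PBS 1 or 2, or run 2 rRELMa 1 or 3). The difference between runs gave 1 gene under quantiles. The members called stayed at 0 of 5 in each of these.

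Estimates near 0 changed sign. H2-K1 was -0.02 with reference genes, library totals or negative controls subtracted, -0.00139 with positive controls, -0.03 with DESeq2 and -0.002 with reference genes kept among the tested (an alternative chosen after seeing the data), and -0.05 to 0.01 with a sample left out. Psmb9 was -0.01 with reference genes, library totals, positive controls or quantiles, -0.02 with DESeq2, and -0.05 to 0.03 with a sample left out. Psmb8 was 0.03 with quantiles and 0.00244 with no minimum. H2-D1 ranged from -0.01 to 0.04 and H2-T23 from -0.02 to 0.10 with a sample left out. Tap1 within run 1 was -0.10 with positive controls and -0.02 to 0.13 with a sample left out, and its difference between runs -0.05 to 0.17.

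For run 2 against run 1, no minimum count called 414 genes in PBS, 420 with rRELMa and 528 over both, and positive controls called 395 with rRELMa. Over both treatments the split was 142 higher and 169 lower with TMM, 71 and 241 under reference-gene scaling, 66 and 258 under library totals, 378 and 19 under positive controls, and 187 and 124 under quantiles. Members called under positive controls were 2 in PBS, 3 with rRELMa and 3 over both, all higher. With that scaling PBS samples gave H2-K1 0.70, Psmb8 0.19, H2-D1 1.67, Tap1 -0.30 and Psmb9 -0.23. The rRELMa samples gave H2-K1 1.05, Tap1 0.13, Psmb8 0.53 and Psmb9 0.11. Both treatments together gave H2-K1 0.88, Psmb8 0.36, Tap1 -0.09, Psmb9 -0.06, H2-M3 0.69, H2-Q1 1.37, H2-T23 1.26, Psme2 0.57, Tap2 0.51, Tapbp 0.80, Irf1 0.66, Irf5 1.35, Socs1 0.99, Ifnar2 1.40 and Irf2 1.36.

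H2-D1 in PBS was -0.25 with reference genes, -0.28 with library totals, -0.18 with quantiles and -0.18 with negative controls subtracted. With rRELMa it was -0.18, -0.22, -0.10 and -0.05 in that order, and over both -0.21, -0.25, -0.14 and -0.11. With no minimum it was 0.42 in PBS, now called, 0.58 with rRELMa and 0.50 over both. Cybb was -0.01 with reference genes and -0.04 with library totals, and Ifnar2 0.00186 with no minimum. Calls were also lost for H2-Q1 (-0.04), Irf5 (-0.05) and Irf2 (-0.04) with no minimum, for Irf2 with quantiles (-0.24), for Socs1 (-0.60) and Cybb (0.10) with negative controls subtracted, and for Socs3 with reference genes (0.33) or library totals (0.28). With a sample left out, the log2 ratio of Tap1 over Psmb9 ran from -0.11 to 0.04, and the other 9 pairs kept their direction.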
